A study of Mus musculus with 12 samples.

Results

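The report compares brown adipose tissue (BAT) of mice aged 6 weeks on the 3 arrays labelled interleukin-18 knockout and the 3 arrays labelled wild type, which are 6 of the 12 arrays of a series that also holds mice of 12 weeks. Membership was decided by the age and genotype in the sample labels alone. Each array was hybridized with total RNA of whole BAT from an untreated mouse; the methods describe male littermates, all killed at the same hour of the morning. On strain the sources differ, BALB/c in the labels and a C57BL/6 background in the methods. The labels and the methods also name different storage and extraction of the RNA. Interleukin-18 is a cytokine that immune and other cells release after caspase-1 cleaves its precursor, and its receptor signals through MyD88. Brown adipocytes burn fatty acids and glucose to make heat through uncoupling protein 1 (Ucp1). The molecular clock is a feedback loop of transcription factors in which CLOCK and BMAL1, the product of Arntl, drive their own repressors.

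Each array measured a single fluorescent dye. Values are log2 of the processed spot intensity after subtraction of the log2 75th percentile of the spots of that array that lay well above background, so that 0 is the level of that percentile and 1 unit is a 2-fold difference. Testing was limited to probes with a signal well above background throughout 1 or more of the 4 groups of age and genotype (3 arrays each), and the brightest tested probe stood for the gene. Differences are the mean of the arrays labelled Il18−/− minus the mean of the arrays labelled wild type, given as log2 units with the standard error (s.e.) of the linear model. The p is that of limma, adjusted by Benjamini and Hochberg over all 28748 probes tested, which stand for 21333 genes, and a gene is called changed, risen or fallen when its adjusted p was below 0.05. With 3 arrays in each group, the smallest p that an exact permutation test of a gene can reach is 0.1. The small number of arrays limits the precision of every estimate below.

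The targeted gene was read first. Its probe gave -4.92, -4.93 and -4.21 on the arrays labelled wild type and -3.58, -4.50 and -4.19 on those labelled Il18−/−. These ranges overlapped, and the Il18 signal was not lower under the knockout label (0.60, s.e. 0.30, adjusted p = 0.487). The files do not say whether the probe lies in the deleted part of the gene, so the genotype cannot be checked from this probe. The groups are therefore named by their labels throughout, and every direction below holds only as far as those labels do. The tissue label was checked with brown adipocyte markers. Ucp1 stood at 7.47, 7.79 and 7.44 on the arrays labelled wild type and at 7.71, 7.36 and 7.73 on those labelled Il18−/−. Cidea, a lipid droplet protein abundant in brown adipocytes, stood at 7.96, 7.88 and 7.96 on the arrays labelled wild type and at 8.15, 7.57 and 8.19 on those labelled Il18−/−. Both were among the brightest genes on all 6 arrays and overlapped between the groups, with adjusted p = 0.970 for Ucp1 and 0.970 for Cidea.

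Between the groups 119 of 21333 genes changed (0.558%), of which 81 were higher (0.380%) and 38 lower (0.178%) on the arrays labelled Il18−/−. In all 119 the ranges of the groups did not overlap. Over all genes tested the ranges were separate with the arrays labelled Il18−/− above in 2336 (11.0%) and below in 689 (3.23%). The median difference was 0.10, 13800 differences were positive (64.7%), and 2341 had an unadjusted p below 0.05 (11.0%); these shares are the background for the counts by list below. Of the 119 changed genes 21 lay on chromosome 9, which also carries Il18, where 1086 genes were tested; the part of this position in their changes was not tested. The genes named below that changed and lie there are Abcg4, Apoa1, Apoc3, Gldn, Leo1, Nxpe4, Ppcdc, Scn2b, Usp2 and Zbtb16.

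The array labelled Il18−/− replicate 1 carried much of the shift in the median: its median deviation from the wild type mean over all genes was 0.42, against -0.17 and 0.05 for replicates 2 and 3. It also had the most spots well above background, 36371 of 59305, against 30433 and 33060 on the other arrays of its group and 31371 to 31793 on the arrays labelled wild type. Without that array 137 genes changed, 54 higher and 83 lower, and the median became -0.07. Without replicate 2 labelled Il18−/− 219 changed. The count was 86 without replicate 3 of that label, and without wild type replicate 1, 2 or 3 it was 54, 58 or 56.

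The split by direction also turned on the scaling. With the 75th percentile taken over all probes 729 genes changed, 48.1% of them higher, and with quantile normalization 868 changed, 47.7% of them higher, against 68.1% in the main analysis, and the median over all genes moved from 0.10 to -0.02 and -0.04. Medians near 0 changed sign under another scaling or background correction for, among other lists, respiratory complexes, IL-18 pathway, interferon response, adipogenesis, fatty acid synthesis, glycogen metabolism, hypoxia response, lipoprotein handling and endothelial cells. All 3 arrays labelled wild type and replicates 1 and 2 labelled Il18−/− shared a slide, and replicate 3 lay on the other slide. A fit with slide as a block gave 86 changed genes, 59 higher and 27 lower, the same counts as leaving out replicate 3 labelled Il18−/−, since in that fit the slide term absorbs the array. Slide and that replicate therefore cannot be told apart at 6 weeks.

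Circadian clock genes were the family with the most changed members. Of 27 clock genes in 3 lists (activators, repressors, and outputs with the PAR bZIP factors) 26 were tested and 14 changed, 4 higher and 10 lower, against 0.558% of all genes. The lists were chosen with earlier results of these data known. The shares by list, here and below, are therefore description and not a test. Arntl, which encodes the partner of CLOCK, stood at -6.39, -5.84 and -6.18 on the arrays labelled wild type and at -0.25, -1.37 and -0.98 on those labelled Il18−/−. Its groups were far apart, with a difference of 5.27 (s.e. 0.38, adjusted p = 4.7e-05). Clock itself stood at -2.40, -2.11 and -2.29 on the arrays labelled wild type and at -0.83, -1.26 and -0.89 on those labelled Il18−/−. The ranges were again separate and the difference was smaller, 1.27 (s.e. 0.22, adjusted p = 0.0195). Nfil3, a repressor that binds D-box elements, rose by 2.25 (s.e. 0.29, adjusted p = 0.00283), and Leo1, a subunit of the PAF1 complex of transcription elongation, by 1.67 (s.e. 0.26, adjusted p = 0.0123). Leo1 is counted among clock genes because the list of outputs held it. Npas2 was well above background on none of the 6 arrays.

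Of 12 repressors 5 fell, and of 10 outputs 5 fell and 2 rose, on the same arrays. Dbp, a PAR bZIP factor driven by CLOCK and BMAL1, stood at 4.78, 4.63 and 4.71 on the arrays labelled wild type and at 0.36, 0.28 and -0.41 on those labelled Il18−/−. The groups were separated by more than 4 units (difference -4.63, s.e. 0.35, adjusted p = 5.7e-05). Its relatives Tef and Hlf fell by 1.73 and 2.14 (s.e. 0.21 and 0.22, adjusted p = 0.00210 and 6.3e-04), with Tef at 4.12, 3.96 and 4.25 on the arrays labelled wild type and at 2.43, 2.48 and 2.23 on those labelled Il18−/−. The range within each group was narrow for Tef beside the gap between the groups. Among repressors Per3 fell by 2.35 (s.e. 0.28, adjusted p = 0.00210), Per2 by 1.99 (s.e. 0.37, adjusted p = 0.0346) and Nr1d2, which encodes REV-ERB beta, by 1.36 (s.e. 0.19, adjusted p = 0.00453). Ciart, a repressor of CLOCK and BMAL1, was not well above background on any array labelled Il18−/−. For a gene without such signal in a group, the fold is given as a bound. Each array of that group is set no lower than a floor. The floor is the lowest value on that array among probes with at least 50% of their spots well above background. As this is the lowest such value, the bounds here and below are approximate and not strict. Ciart was at least 17.5-fold lower (adjusted p = 0.00218). Bhlhe40, a helix-loop-helix repressor, fell by 1.73 (adjusted p = 0.0482), Usp2, a deubiquitinase, by 1.43 (adjusted p = 0.0132) and Wee1, a kinase that holds back mitosis, by 1.13 (adjusted p = 0.0323). Nr1d1, Cry2 and Avpr1a had separate ranges but did not pass, at -0.98, -0.72 and 1.28. A dimmer probe of Cry2 did pass, at -1.66 (adjusted p = 0.0228), so the probes of that gene differed in call.

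**Figure D1:**
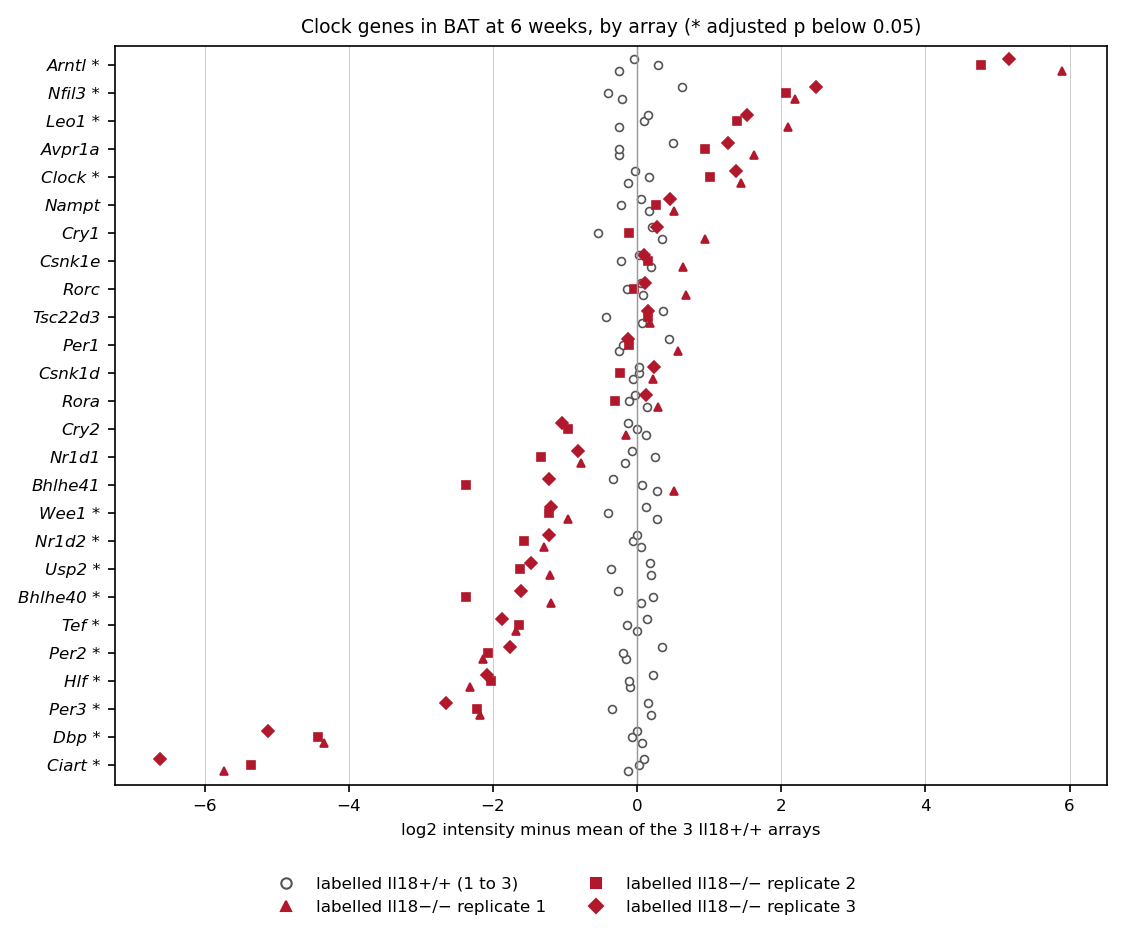
Clock genes of the 3 lists, by array. The horizontal axis is log2 intensity minus the mean of the 3 arrays labelled wild type; open circles are the arrays labelled wild type and filled red marks the arrays labelled Il18−/−. An asterisk marks genes with limma adjusted p below 0.05 (n = 3 arrays per group).

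The gap between Arntl and Dbp within an array does not depend on the factor by which an array is scaled. As log2 of Arntl minus log2 of Dbp it was -11.17, -10.48 and -10.89 on the arrays labelled wild type and -0.61, -1.66 and -0.57 on those labelled Il18−/−; these are differences of signals and not of transcript numbers. Over the clock repressors replicate 1 labelled Il18−/− stood above the others of its group, with a median deviation of -0.46 against -1.45 and -1.14 in replicates 2 and 3. That array stood above them over all genes as well, at 0.42 against -0.17 and 0.05. The summed linear intensity of the list of PAR bZIP and clock outputs was 58.2, 50.8 and 59.6 on the arrays labelled wild type against 22.4, 20.6 and 21.0 on those labelled Il18−/−. Tef and Dbp were its brightest members. Over the clock genes, all 3 lists, 17 genes changed with the percentile over all probes and 16 with quantile normalization, and no sign reversed among those that passed in the main analysis. Within slide 1, which drops replicate 3 labelled Il18−/−, 10 changed, and without replicate 1 labelled Il18−/− 14 changed, 13 of them among the 14 of the main analysis. The methods describe killing all animals at the same hour; the labels do not give the hour for each array, so the files offer no check of it.

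Promoters of these genes were searched for clock elements as description only. The windows ran from 250 bases before to 50 bases after the RefSeq transcript start on GRCm38.p6, and a match on either strand counted. An E-box (CACGTG), the site of CLOCK and BMAL1, occurred in 8.09% of 27025 genes with a window and in 5 of 22 clock genes: Ciart and Tef, which fell, and Bhlhe41, Cry1 and Per1, which did not pass. A D-box (TTATG, any base, then AA), the site of PAR bZIP factors and NFIL3, occurred in 3.99% of genes and in 2 of 22 clock genes, Per3 and Per1, and the ROR element (TAGGTCA) in 2.97% of genes and in 3 of 22 clock genes, Arntl, Leo1 and Nfil3. Sequences of the 250 bases before the start are given for Ciart and Tef, which fell and hold E-boxes, for Per3, which fell and holds D-boxes, and for Nfil3 and Leo1, which rose and hold a ROR element. They were picked among changed genes, and clock genes that did not pass also hold E-boxes and, in Per1, a D-box. The sequences are written 5′ to 3′ on the strand of the gene, in lower case with the matches in capitals; TGACCTA is the ROR element on the opposite strand. Ciart lies on the minus strand (chr3:95882229-95882478, E-boxes 116, 58 and 44 bases before the start), Tef has a start at each of 2 places on the plus strand (chr15:81802423-81802672 and chr15:81811164-81811413), Per3 lies on the minus strand (chr4:151044666-151044915), Nfil3 on the minus strand (chr13:52981040-52981289) and Leo1 on the plus strand (chr9:75441274-75441523).
Ciart: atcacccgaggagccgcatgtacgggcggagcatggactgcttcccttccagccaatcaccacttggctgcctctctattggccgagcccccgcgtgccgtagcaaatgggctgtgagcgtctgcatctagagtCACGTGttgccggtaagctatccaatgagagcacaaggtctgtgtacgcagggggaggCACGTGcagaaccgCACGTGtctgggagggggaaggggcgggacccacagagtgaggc
Tef, first start: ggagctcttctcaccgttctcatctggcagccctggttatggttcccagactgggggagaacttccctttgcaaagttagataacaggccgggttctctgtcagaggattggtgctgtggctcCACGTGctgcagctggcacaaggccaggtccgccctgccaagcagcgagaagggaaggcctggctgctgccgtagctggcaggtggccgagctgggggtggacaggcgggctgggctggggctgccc
Tef, second start: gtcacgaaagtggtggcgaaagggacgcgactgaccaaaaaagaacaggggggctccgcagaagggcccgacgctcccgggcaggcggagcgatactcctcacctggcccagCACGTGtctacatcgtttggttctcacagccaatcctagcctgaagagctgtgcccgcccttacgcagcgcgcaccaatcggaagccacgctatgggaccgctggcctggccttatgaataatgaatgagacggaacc
Per3: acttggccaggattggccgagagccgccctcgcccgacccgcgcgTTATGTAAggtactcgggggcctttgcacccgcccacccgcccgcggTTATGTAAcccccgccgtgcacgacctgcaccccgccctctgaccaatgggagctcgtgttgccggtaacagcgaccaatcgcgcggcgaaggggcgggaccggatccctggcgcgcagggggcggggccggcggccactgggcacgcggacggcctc
Nfil3: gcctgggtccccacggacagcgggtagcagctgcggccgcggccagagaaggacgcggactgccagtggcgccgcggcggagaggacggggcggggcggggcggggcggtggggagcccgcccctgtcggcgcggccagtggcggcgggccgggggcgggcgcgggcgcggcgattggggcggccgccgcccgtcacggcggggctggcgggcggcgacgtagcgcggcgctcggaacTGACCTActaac
Leo1: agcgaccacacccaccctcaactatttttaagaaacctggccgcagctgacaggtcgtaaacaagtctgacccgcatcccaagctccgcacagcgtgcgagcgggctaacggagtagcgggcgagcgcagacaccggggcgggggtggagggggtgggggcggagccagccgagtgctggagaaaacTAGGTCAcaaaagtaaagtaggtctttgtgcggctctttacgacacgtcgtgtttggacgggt

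In the heat shock response a single gene changed, while most members lay above the wild type range. Hspa1a, an inducible HSP70 chaperone whose probe also matches its paralog Hspa1b, stood at -4.76, -4.98 and -4.68 on the arrays labelled wild type and at -1.25, -1.94 and -0.92 on those labelled Il18−/−. The ranges were separate by more than 2 units, and the difference was 3.44 (s.e. 0.30, adjusted p = 1.5e-04); which of the paralogs gave the signal cannot be told. Of 24 genes of the list tested, 1 changed and 23 did not pass, but 23 differences were positive (95.8%, against 64.7% of all genes) and 16 had separate ranges with the arrays labelled Il18−/− above (66.7%, against 11.0% of all genes). The list median was 0.59 (0.56 with the gene near background at its bound), against 0.10 over all genes. Its median deviations were 0.87, 0.26 and 0.64 on the arrays labelled Il18−/− and 0.04, -0.05 and 0.04 on those labelled wild type. Hsph1, an HSP110 chaperone, was at 1.51 (adjusted p = 0.0789), and the HSP40 co-chaperones Dnajb1 and Dnaja1 at 0.98 and 0.98 (adjusted p = 0.0813 and 0.0932). The number of changed members of the heat shock response was 7 with the percentile over all probes, 11 with quantile normalization and 5 with another background correction, all higher. Within slide 1 it was 1, and without replicate 1 labelled Il18−/− the median was 0.42. A heat shock element was found in 0.662% of all genes with a window and in 4 of 20 listed genes, Hspd1, Hspe1, Hsph1 and Chordc1. None of these passed, and Hspa1a was not among them.

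Other stress and signalling lists lay mostly above 0 without changed members. For sterol synthesis and SREBP2 targets 27 genes were tested and 0 changed by limma (12 at an unadjusted p below 0.05, 44.4% against 11.0% of all genes), with 25 differences positive (92.6% against 64.7%) and a median of 0.47. The median deviations on the arrays labelled Il18−/− were 0.63, 0.09 and 0.69, while those labelled wild type had 0.28, -0.12 and -0.13, so replicate 2 lay within the wild type range. Insig1, which retains the SREBP escort protein, was at 1.57 (adjusted p = 0.0624), Cyp51, a lanosterol demethylase, at 1.32 (adjusted p = 0.0806) and Hmgcs1, which makes HMG-CoA, at 0.98 (adjusted p = 0.102). With the percentile over all probes 3 of the sterol synthesis and SREBP2 targets passed, all higher. The 22 genes of the unfolded protein and integrated stress response had 0 changed (9 at an unadjusted p below 0.05, 40.9%) and a median of 0.32, which was 0.16 without replicate 1 labelled Il18−/−. Of their differences 16 were positive, 72.7% against 64.7% of all genes. In the list unfolded protein and integrated stress response, 4 genes passed with the percentile over all probes, with quantile normalization and with another background correction, 3 higher and 1 lower each time. Atf4, the transcription factor of the integrated stress response, was at 0.87 (adjusted p = 0.103), and Herpud1, of degradation at the endoplasmic reticulum, at -0.80 (adjusted p = 0.0961). Among 28 immediate early genes 0 changed (10 at an unadjusted p below 0.05, 35.7%), and 22 differences were positive (78.6% against 64.7%). Their median was 0.61, which came largely from replicate 1 labelled Il18−/−, at 1.36, against 0.23 and 0.07 in the other replicates of its label. Without that array the median of the immediate early genes was 0.24, and with another background correction 4 of them passed, all higher.

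Of 17 genes of the glucocorticoid response 2 rose, against 0.380% of all genes. Cdkn1a, the inhibitor p21 of cyclin-dependent kinases, stood at -1.68, -1.14 and -0.80 on the arrays labelled wild type and at 1.87, 1.52 and 2.04 on those labelled Il18−/−. Its ranges were well apart (3.01, s.e. 0.23, adjusted p = 5.8e-05). Zbtb16, a zinc finger transcription factor, rose by 2.21 (s.e. 0.43, adjusted p = 0.0441). Pdk4, a kinase that restrains pyruvate oxidation, was at 0.54 (adjusted p = 0.30). E2f2, an E2F transcription factor of S phase entry, rose by 2.99 (s.e. 0.33, adjusted p = 0.00111). The cell cycle list had a median of -0.03 over 23 genes, of which 1 fell: Ccnb1, which encodes cyclin B1, at -1.39 (s.e. 0.28, adjusted p = 0.0492). In the hypoxia list of 14 genes P4ha1, a collagen prolyl hydroxylase subunit, rose by 1.32 (adjusted p = 0.0475), with its second probe short of the threshold, and Bhlhe40 was the other gene that passed. Adamts4, a proteoglycan-cleaving protease, was the only changed gene of 23 for extracellular matrix and remodelling, and it rose by 3.31 (s.e. 0.32, adjusted p = 3.7e-04).

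Of the thermogenic programme little passed the test. Dio2, the deiodinase that makes active thyroid hormone in BAT, stood at -1.87, -2.40 and -1.07 on the arrays labelled wild type and at 0.68, 1.14 and 1.44 on those labelled Il18−/−. The ranges did not overlap, and the difference was 2.87 (s.e. 0.37, adjusted p = 0.00298). It was the only changed gene of 25 for BAT identity and thermogenesis, whose median was -0.05. In the list of BAT identity and thermogenesis 2 genes passed with the percentile over all probes and with quantile normalization, 1 higher and 1 lower. Slc27a2, a fatty acid transporter and activating enzyme, was at -1.16 (adjusted p = 0.0786), and Elovl3, a fatty acid elongase of BAT, at -1.37 (adjusted p = 0.646). Slc27a2 passed with slide as a block, at -1.41 (adjusted p = 0.0335), and with replicate number as a block (adjusted p = 0.0364). Within slide 1 fitted alone it did not pass (adjusted p = 0.0516). Ppargc1a, the coactivator of mitochondrial genes, gave 0.17, 0.30 and 0.49 on the arrays labelled wild type and 0.69, 0.80 and 2.27 on those labelled Il18−/−. Its ranges were separate but replicate 3 stood far above the rest, and it did not pass (0.94, s.e. 0.36, adjusted p = 0.336). All 10 brown adipocyte markers overlapped between the groups, with a median of -0.05, and their summed intensities were 828, 852 and 805 on the arrays labelled wild type and 922, 658 and 905 on those labelled Il18−/−. All 76 genes of the respiratory complexes overlapped as well. Their differences ran from -0.19 to 0.20, with a median of 0.01 and no unadjusted p below 0.05.

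Metabolic and receptor pathways held few or no changed genes. Among 24 genes of the beta-adrenergic and cAMP response 1 fell, Pik3ip1, an inhibitor of PI3 kinase, at -1.51 (s.e. 0.30, adjusted p = 0.0492). The other differences of that list lay mostly above 0 without passing. Its median was 0.26, with 19 differences positive (79.2%, against 64.7% of all genes) and 5 negative. Of the 24 genes 6 had an unadjusted limma p below 0.05, against 11.0% of all genes. Sik1, a kinase induced by cAMP, was at 1.57 (adjusted p = 0.179). By limma no gene changed among 24 for adipogenesis (7 at an unadjusted p below 0.05, against 11.0% of all genes), 20 for lipid droplet and lipolysis (3), 23 for fatty acid synthesis (3) or 25 for fatty acid oxidation (2). The same held for 27 genes of glucose uptake and glycolysis (1), 16 of glycogen metabolism (1) and 21 of insulin signalling (6). Some of these zeros turned on the scaling. With the percentile over all probes 3 genes passed for adipogenesis, 3 for insulin signalling and 2, both lower, for lipid droplet and lipolysis. With quantile normalization the counts were 3, 2 and 2. Under both scalings the count stayed at 0 for fatty acid synthesis, fatty acid oxidation, glucose uptake and glycolysis, and glycogen metabolism. With another background correction 1 gene passed for fatty acid synthesis and 1 for fatty acid oxidation. Cebpb, a transcription factor of adipogenesis, came closest at 0.95 (s.e. 0.20, adjusted p = 0.0552). Of the 20 lipid droplet genes 4 had separate ranges with the arrays labelled Il18−/− below (20%, against 3.23% of all genes), and 0 above. Among the 4 were Cideb, Plin5 and Dgat2, at -0.84, -0.46 and -0.43, with adjusted p = 0.202, 0.409 and 0.414. Irs2, the insulin receptor substrate, was at 1.23 (adjusted p = 0.306). In the IL-18 pathway 19 of 27 genes were tested, 0 changed (1 at an unadjusted p below 0.05) and all 19 overlapped, with a median of 0.12; Il18rap, Il12a and Il12b were well above background on none of the 6 arrays. The interferon response had 0 changed of 27 (2 at an unadjusted p below 0.05) and a median of 0.05. In the list of genes also measured by PCR 18 were tested, Apoc3 and Dio2 rose, and the median was 0.18. These are the genes the study measured by qRT-PCR. Of that list 5 passed with the percentile over all probes and with quantile normalization and 4 with another background correction, all higher, and the median was 0.06, 0.10 and 0.16.

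**Figure D2:**
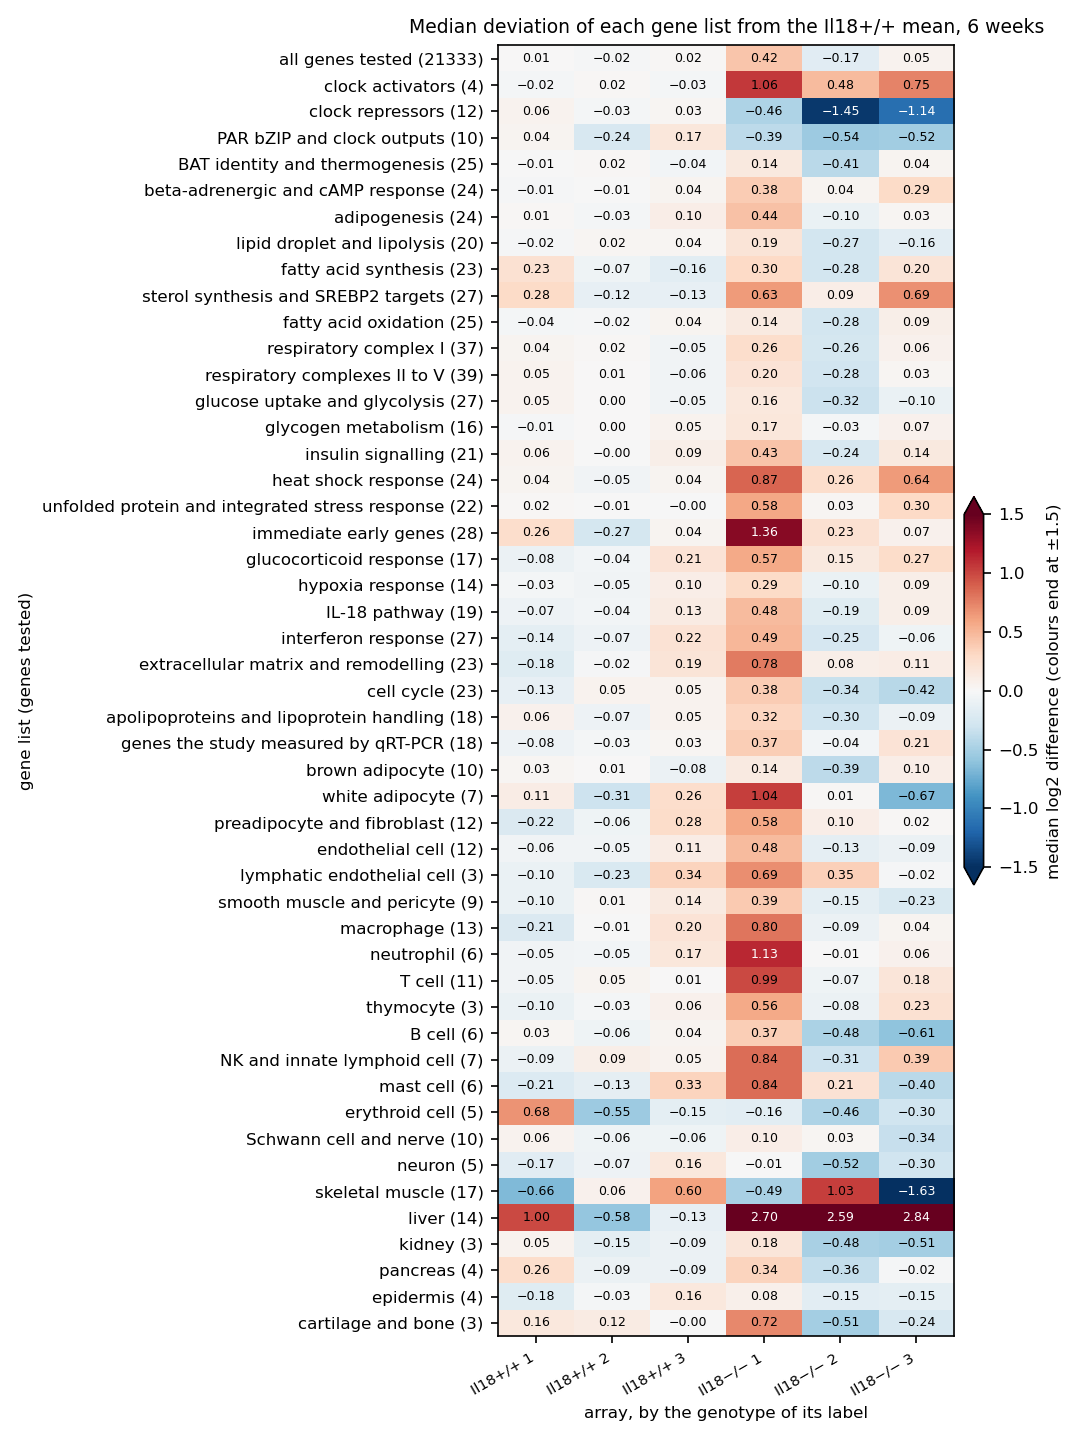
Median deviation of each gene list from the mean of the 3 arrays labelled wild type, for each of the 6 arrays, in log2 units. Red is above and blue below the wild type mean, and the number of genes tested stands after each list name.

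Of 21 liver genes 14 were tested, 2 rose and 12 did not pass. Of the 14, only 6 were well above background on all 6 arrays, and 8 passed the filter through the arrays labelled Il18−/− at 6 weeks alone, where they stood higher. The list median is therefore a product of that selection in part and is not read as a shift of liver genes as a group. Of the list, 12, 7 and 7 were well above background on the arrays labelled wild type and 15, 15 and 18 on those labelled Il18−/−. The fitted median was 2.71, or 2.54 with only the 2 genes that were well above background on no wild type array set to their bounds. With a filter that asked for a signal on all 12 arrays, 5 genes were left and the liver median was -0.16, the value of Tat. These genes went both ways: Serpina1a and Serpinc1 were at 3.06 and 1.35, and Apoa2 and Cyp2e1 at -0.32 and -0.81. Hpx, which encodes the haem carrier hemopexin, stood at -5.76, -6.59 and -6.45 on the arrays labelled wild type and at -4.00, -4.15 and -3.91 on those labelled Il18−/−. It rose by 2.25 (s.e. 0.43, adjusted p = 0.0416) with separate ranges. Apoa1, the main protein of high-density lipoprotein, was not well above background on the arrays labelled wild type, entered through the other label and was at least 2.01-fold higher (adjusted p = 0.0263). Fgg, which encodes fibrinogen gamma, stood at -6.07, -9.07 and -8.95 on the arrays labelled wild type and at -3.51, -3.43 and -3.49 on those labelled Il18−/−. Fgg was well above background on 1 array labelled wild type, so its fitted difference rests partly on background, and it did not pass (4.55, s.e. 1.12, adjusted p = 0.108). Ttr, a thyroid hormone carrier, was at least 7.15-fold higher without passing (adjusted p = 0.127).

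The brightest liver genes went both ways. Serpina1a, the brightest after Cyp2e1 and Apoa2, was well above background on all 6 arrays with separate ranges. It was at 3.06 without passing (adjusted p = 0.102), and Serpinc1 was at 1.35 (adjusted p = 0.273). Tat was at -0.16 (adjusted p = 0.821). Cyp2e1 and Apoa2 were at -0.81 and -0.32 (adjusted p = 0.315 and 0.604), and the summed intensity of the list was 13.7, 13.4 and 27.3 on the arrays labelled wild type and 14.5, 12.5 and 9.98 on those labelled Il18−/−. Cps1 and Itih3 were well above background on none of the 6 arrays. With the slide as a block 0 liver genes changed, although the fitted differences hardly moved. Hpx was at 2.19 in that fit, against 2.25, and Apoa1 at 2.50, against 2.51. Those of Apoa1 rest on background on the arrays labelled wild type. Within slide 1 fitted alone 8 liver genes changed, all higher. Another background correction brought the liver median to 0.96. The part of liver RNA in the result was not tested. Among 18 apolipoproteins and genes of lipoprotein handling 2 rose, Apoc3 and Apoa1 (11.1%, against 0.380% of all genes). Apoc3, an inhibitor of lipoprotein lipase, stood at -0.43, -0.98 and -0.97 on the arrays labelled wild type and at 2.16, 1.52 and 2.16 on those labelled Il18−/−. Its ranges were separate (2.74, s.e. 0.37, adjusted p = 0.00391). A second probe of Apoc3 did not pass, and the list median was -0.07.

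**Figure D3:**
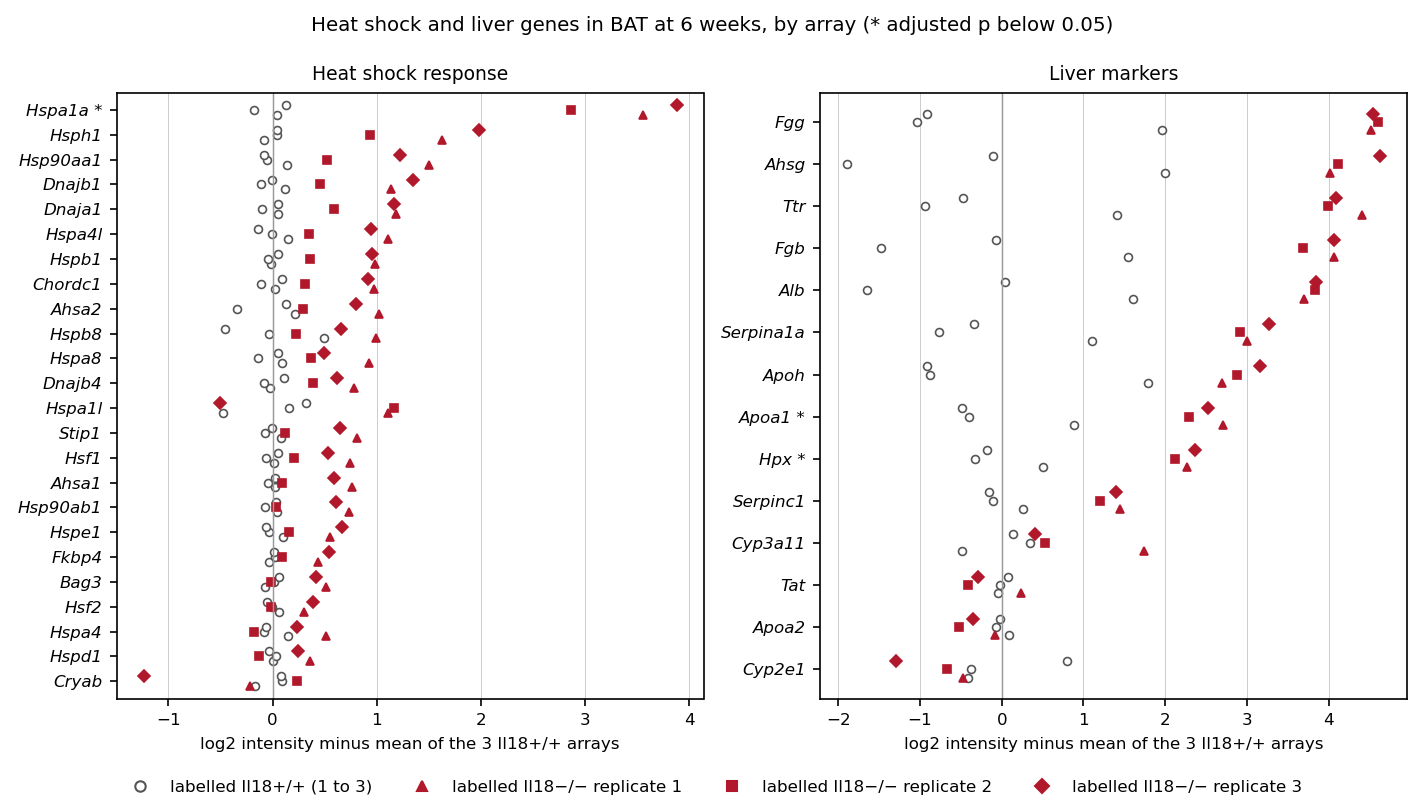
Genes of the heat shock response (left) and liver markers (right), by array, as log2 intensity minus the mean of the 3 arrays labelled wild type. Open circles are the arrays labelled wild type and red marks those labelled Il18−/−, with an asterisk at genes with limma adjusted p below 0.05.

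Of 22 cell type and tissue lists 20 had no changed gene. Skeletal muscle genes varied widely between arrays of the same label: their summed intensity was 75.9, 124 and 175 on the arrays labelled wild type and 90.1, 244 and 40.6 on those labelled Il18−/−. All 17 overlapped, among them Tnni2, the brightest, at -0.32 (adjusted p = 0.879). The skeletal muscle median was -0.32, and 0.29 within slide 1. Macrophage, neutrophil and T cell lists stood high mainly on replicate 1 labelled Il18−/−, with 0 changed genes by limma. For macrophage markers the deviations under that label were 0.80, -0.09 and 0.04, and for neutrophil markers 1.13, -0.01 and 0.06. T cell markers gave 0.99, -0.07 and 0.18 on the same arrays. Natural killer and innate lymphoid markers were at 0.84, -0.31 and 0.39, so replicate 3 also stood above the wild type range of -0.09 to 0.09. Their list median was 0.197, or 0.003 with the 2 genes near background at their bounds. B cell markers were at 0.37, -0.48 and -0.61. With the percentile over all probes 2 genes of the T cell list passed, 1 higher and 1 lower, and 1 of the neutrophil list, higher. Without replicate 1 the medians of the macrophage, neutrophil and T cell lists were 0.04, -0.03 and -0.06. Of 12 endothelial cell markers 1 rose: Cldn5, which encodes claudin-5 of tight junctions. It stood at 0.37, 0.13 and -0.21 on the arrays labelled wild type and at 2.89, 1.5 and 2.0 on those labelled Il18−/−. The ranges were separate (2.03, s.e. 0.29, adjusted p = 0.00617) while Egfl7, the brightest marker, was at 0.00 and the list median was 0.05. In whole tissue, fewer cells and less RNA per cell cannot be told apart.

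Outside these lists, several of the largest changes were in genes near or below background under 1 of the labels. Scn2b, which encodes a sodium channel beta subunit, and Alkal2, a ligand of the receptor ALK, were at least 3.67-fold and 3.76-fold higher (adjusted p = 7.1e-06 and 0.00307). Psrc1, a microtubule-associated protein, and Ces1c, a carboxylesterase, were at least 2.06-fold and 1.45-fold higher (adjusted p = 0.0465 and 0.0492). Gldn, which encodes gliomedin of the node of Ranvier, was well above background throughout, at -1.56, -2.48 and -2.65 on the arrays labelled wild type and at 1.35, 0.65 and 1.08 on those labelled Il18−/−. The ranges were separate and it rose by 3.25 (s.e. 0.32, adjusted p = 4.1e-04). On the lower side Nxpe4 was at least 16.7-fold and Gstt4, a glutathione transferase, at least 5.78-fold lower (adjusted p = 5.7e-05 and 0.0100). Smim38, a small membrane protein, and Ppcdc, an enzyme of coenzyme A synthesis, were at least 1.67-fold and 1.47-fold lower (adjusted p = 0.00283 and 6.9e-04). Rgs9bp, which anchors a regulator of G protein signalling, was lower (adjusted p = 0.0416); it was well above background on 2 of the arrays labelled Il18−/−, so its fitted difference of -2.02 rests partly on background and was -1.44 without replicate 1. Abcg4, a sterol transporter, fell by 1.79 (s.e. 0.28, adjusted p = 0.0117). Of these genes Alkal2, Psrc1, Ces1c, Gstt4 and Ppcdc passed the filter only through the 6-week group in which they were higher, so their adjusted p is not free of selection. The bounds hold for the main background correction only: with another, Smim38 was at -0.34 and Ppcdc at -0.42 (adjusted p = 0.663 and 0.523). In all, 16 of the 119 changed genes were well above background on no array of 1 of the groups.

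Slide and single arrays bore on some of these calls more than on others. With slide as a block, which at 6 weeks amounts to leaving out replicate 3 labelled Il18−/−, Arntl kept 5.33 (adjusted p = 2.2e-04), Dbp -4.38 (adjusted p = 2.8e-04), Hspa1a 3.21 (adjusted p = 7.7e-04) and Dio2 2.69 (adjusted p = 0.0127). Of 38 named genes that changed, 9 kept their sign but not the call in that fit. Among clock genes these were Clock, Per2, Bhlhe40 and Wee1, at 1.22, -2.10, -1.79 and -1.10 in that fit (adjusted p = 0.0603, 0.0564, 0.0887 and 0.0920). The others were Zbtb16, P4ha1, Hpx, Apoa1 and Ces1c, at 1.84, 1.20, 2.19, 2.50 and 3.02 (adjusted p = 0.111, 0.125, 0.0968, 0.0598 and 0.0536). The values of Apoa1 and Ces1c rest on background on the arrays labelled wild type. Of the same 38 genes, 21 were called in all 6 fits that each left out 1 array, among them Arntl, Dbp, Ciart, Tef, Hlf, Per3, Nr1d2, Nfil3, Cdkn1a, Adamts4, Hspa1a, Dio2 and Cldn5. Clock, Wee1 and Apoa1 were called in 2 of these fits, Zbtb16, P4ha1, Ccnb1, Pik3ip1, Bhlhe40 and Psrc1 in 1, and Per2, Hpx and Ces1c in none, although no sign reversed. Another background correction lost the calls of 7 named genes: Apoa1, Ccnb1, Ces1c, Ppcdc, Psrc1, Rgs9bp and Smim38. It also made some differences of called genes smaller: Arntl was at 3.61, against 5.27 in the main analysis, and Per3 at -1.38, against -2.35. Dbp and Dio2 hardly moved, at -4.60 and 2.72. In the same model the genotype difference at 12 weeks differed from that at 6 weeks in 400 of 21333 genes (1.88%), and in 13 of the 26 clock genes. The clock lists were chosen with earlier results known, and the 6-week difference enters this contrast. The share of clock genes is therefore not to be set against that of all genes. At 12 weeks the labels coincided with the slides, all wild type on slide 1 and all Il18−/− on slide 2. With slide as a block the count over all genes was 52. Of the 13 clock genes, Arntl, Nfil3, Hlf, Dbp and Ciart passed in that fit.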

How the data were processed

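Spots were read on an Agilent mouse array with 59305 non-control spots. The deposited intensity values were made by the authors with Agilent Feature Extraction, version 10.7.3.1 per the file headers (the methods name another version), by background subtraction and detrending, without normalization between arrays. The log2 values were computed here from the deposited intensity, and each array was set to the 75th percentile of its non-control spots well above background. Spots flagged as uneven were left out, and the 28748 probes tested had a signal well above background throughout 1 or more groups of 3 arrays. R 4.3.3 and limma 3.58.1 fitted the 4 groups of age and genotype on all 12 arrays, which share the estimate of spread, with Benjamini-Hochberg adjustment and the threshold 0.05; the fit was tested on simulated data. Probe annotation was on mm9 and promoters on GRCm38.p6, and coordinates of the builds were not mixed. Between 30433 and 36371 spots per array at 6 weeks were well above background. Alternatives were other scalings, background corrections and filters, slide or replicate number as a block, slide 1 alone, and each array left out.

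Named genes were Il18; the genes the study measured by PCR; changed members of the gene lists, and up to 4 members of a described list with the smallest p among those not past the threshold; the 12 largest and 12 smallest differences among changed genes with separate ranges; and the brightest markers of described cell types. The lists and their members were chosen with earlier results of these data known.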

Additional observations from a re-analysis of the deposited data

Results flagged for a closer look

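The genotype difference at 12 weeks was set against that at 6 weeks in the same limma model, as the difference between labels at 12 weeks minus that at 6 weeks, in log2 units. Over all genes tested 1.88% differed. Of 93 named genes 34 differed between the ages by adjusted p (the largest was 0.0495) and 59 did not; most named genes were chosen for their difference at 6 weeks, which enters this contrast, so the share of named genes is not to be set against that of all genes. At 12 weeks all 3 arrays labelled wild type lay on slide 1 and all 3 labelled Il18−/− on slide 2, so the genotype difference at that age cannot be told apart from a difference between slides. With slide as a block, whose effect is then estimated from the 6-week arrays labelled Il18−/− alone, the count over all genes went from 400 to 52. Of the 34 named genes all 34 kept their sign in that fit and 12 passed: Dio2, Hspa1a, Adamts4, Arntl, Vdr, Cdkn1a, Nfil3, Ppargc1a, Hlf, Pik3ip1, Dbp and Ciart. All directions follow the genotype labels, which the Il18 probe could not check.

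Of the 34, 21 were lower at 12 weeks than at 6 weeks in this sense. Members of the clock lists of this kind were Arntl (-5.26), Nfil3 (-2.80), Leo1 (-2.41) and Clock (-1.52). The chaperone genes were Hspa1a (-6.98) and Dnaja1 (-1.39), and the genes of thermogenesis and adipogenesis were Dio2 (-7.36), Ppargc1a (-2.69), Ppargc1b (-1.11) and Cebpb (-1.77). The genes of stress, sterol synthesis and early signalling were Sik1 (-3.32), Errfi1 (-1.76), Atf4 (-1.60) and Hmgcs1 (-1.42). The others were Adamts4 (-5.69), Alkal2 (-3.95), Vdr (-3.44), E2f2 (-3.32), Cdkn1a (-3.03), Cldn5 (-2.0) and Scn2b (-1.74).

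The other 13 had a higher difference at 12 weeks. Clock genes among them were Ciart (6.69), Dbp (4.63), Bhlhe40 (2.68), Hlf (2.39), Per2 (2.31), Per3 (2.02), Wee1 (1.84), Tef (1.73) and Nr1d2 (1.62). The rest were Pik3ip1 (4.08), Rgs9bp (2.49), Gldn (2.45) and Herpud1 (1.30). The labels do not tell the hour of sampling of each array, and the cause of these differences was not tested.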

How the results depend on the processing

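Counts of calls moved more with the processing than single genes did. At 6 weeks 163 probes and 119 genes changed in the main analysis. The counts of probes and genes were 935 and 729 with the 75th percentile over all probes, 1086 and 868 with quantile normalization, and 314 and 256 with normexp background correction. They were 53 and 42 with no filter on dim probes, and 735 and 504 under the criterion of a ratio above 2 or below 0.5 with no test. Leaving out each array in turn gave 66 to 320 probes and 54 to 219 genes. The cause was not tested.

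Genes whose genotype difference differed between the ages numbered 400 in the main analysis, 879 with the percentile over all probes, 872 with quantile normalization, 39 with no filter, 619 with the filter on all 12 arrays, 52 with slide as a block, and 117 to 912 with an array left out. Clock genes that changed numbered 14 in the main analysis, 8 with no filter and 8 to 14 with an array left out. Of the main 14, 8 to 13 were called with an array left out. The liver median of 2.71 reversed to -0.16 with the filter on all 12 arrays, which left 5 liver genes in the test. That median was the value of Tat. Serpina1a and Serpinc1 lay above it, at 3.06 and 1.35, and Apoa2 and Cyp2e1 below it, at -0.32 and -0.81.

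For named genes that changed, no value reversed. Over all other settings together 458 values stayed past the threshold and 62 did not, and with an array left out 160 did and 68 did not. For named genes that had not changed, 680 values stayed short of the threshold and 87 passed it, and with an array left out 320 and 10. Of 999 list medians, 967 moved by less than the spread between replicates. The sign was another than in the main analysis in 99, over 34 lists. Of these, 87 moved by less than the spread and 11 by more, and 1 more, that of liver, did so in a list with a changed gene.

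Replicates of the same number did not deviate together: the correlations of their deviations were 0.08, 0.04 and -0.23. A block for replicate number gave 125 probes and 97 genes. Weak spots are limited by background: 51.3% to 61.3% of spots on the 6 arrays were well above it.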
